A study of Homo sapiens with 12 samples.

Results

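Small nucleolar RNAs (snoRNAs) guide the chemical modification of ribosomal and other RNAs, and most human snoRNAs are cut out of the introns of longer host genes. The host genes described here are 10 whose spliced RNA is long and non-coding: GAS5, SNHG1, SNHG3, SNHG5, SNHG6, SNHG7, SNHG8, SNHG12, SNHG15 and ZFAS1. They were taken by name, through GENCODE v29 identifiers, from a table of 16676 genes, and 10 of 10 were found and passed the filter on low values. The RNA came from HCT116, a human colon cancer cell line, as wild type (WT) cells, as cells without the SPARCLE gene (KO, a knockout) and as cells with extra SPARCLE RNA (OE, over-expression). SPARCLE is a long non-coding RNA and none of the 10 hosts. These 3 kinds of cells received either regular medium (control) or 1 µM doxorubicin for 48 h, and each of the 6 groups holds 2 biological replicates. Doxorubicin is a DNA-damaging drug of the anthracycline class that poisons topoisomerase II. The labels name no clone for KO or OE cells, no method of knockout and no promoter of the over-expressed RNA.

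Many host RNAs of this kind carry short reading frames that end early, so that the spliced RNA is removed by nonsense-mediated decay, the pathway that destroys RNAs with a premature stop. Many of them start, like ribosomal protein messenger RNAs, with a C followed by a run of pyrimidines (a 5′ terminal oligopyrimidine tract, 5′TOP), which ties translation to growth signals. GAS5 (growth arrest-specific 5) was named for its rise in growth-arrested cells. The snoRNAs fall into C/D box RNAs (SNORD), which guide ribose methylation, and H/ACA box RNAs (SNORA), which guide pseudouridylation.

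The start sites of the 5 hosts whose RefSeq windows held both motifs are shown: SNHG5 and ZFAS1, which fell with doxorubicin, SNHG7, which rose, and SNHG8 and SNHG12, which were not called. Of the 10 genes, 8 were in the RefSeq promoter table (GRCh38.p14), and each line holds 40 bases before and 30 bases from the RefSeq start. Capitals mark TATAA found 15 to 45 bases before the start and a C followed by at least 4 C or T that begins within 10 bases of the start.
SNHG5: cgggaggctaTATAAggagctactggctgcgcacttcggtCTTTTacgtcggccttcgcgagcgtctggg
ZFAS1: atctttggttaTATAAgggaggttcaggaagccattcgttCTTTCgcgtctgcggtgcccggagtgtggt
SNHG7: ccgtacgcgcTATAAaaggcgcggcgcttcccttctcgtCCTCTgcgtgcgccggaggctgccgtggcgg
SNHG8: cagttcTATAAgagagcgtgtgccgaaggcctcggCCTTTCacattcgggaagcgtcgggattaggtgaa
SNHG12: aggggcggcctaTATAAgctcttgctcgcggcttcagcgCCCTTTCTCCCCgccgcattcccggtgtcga

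These windows are chr6:85678704-85678773 (minus strand), chr20:49278602-49278671 (plus), chr9:136728155-136728224 (minus), chr4:118278722-118278791 (plus) and chr1:28581844-28581913 (minus). TATAA and the run were searched on the gene's strand and did not overlap each other in these windows. TATAA was held by 5 of the 8 host windows, against 4.09% of 35116 promoters of the same length. The pyrimidine run was also held by 5 of 8, against 30.4% of all promoters. The E-box CACGTG reads alike on both strands and was in 1 of the 8 windows of 300 bases (SNHG7), against 7.26% of all. The RefSeq windows of GAS5, SNHG1 and SNHG3 held neither of the first motifs. Those of GAS5 (chr1:173869016-173869085) and SNHG3 (chr1:28505903-28505972) do not reach the GENCODE v29 gene starts at 173868882 and 28505980. They therefore say nothing of the GENCODE starts of these 2 genes. The run begins at the RefSeq start itself in SNHG5 and ZFAS1 and before it in SNHG7, SNHG8 and SNHG12. Among GENCODE v29 transcripts, a run stands at the very start in 6 of 29 for GAS5, 1 of 25 for SNHG1, 1 of 3 for SNHG3, 3 of 23 for SNHG5, 3 of 5 for SNHG6, 0 of 4 for SNHG7, 1 of 5 for SNHG8, 4 of 17 for SNHG12, 0 of 10 for SNHG15 and 3 of 10 for ZFAS1. The first 30 bases of the 6 GAS5 transcripts are given as those of the host with the most such transcripts.
GAS5: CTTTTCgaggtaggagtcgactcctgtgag

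The depth was recovered from the low values and lay between 12595356 and 18565467 reads on listed genes in control libraries and between 24884092 and 30678972 with doxorubicin. A host gene had between 503 and 39878 reads in a library. SPARCLE itself had 0 reads in the 4 WT and KO control libraries, 384 and 622 in OE control, 0 and 3 in WT cells with doxorubicin, 4 and 1 in KO cells with doxorubicin, and 430 and 487 in OE cells with doxorubicin. The knockout could therefore not be read from SPARCLE in either medium. The summed TPM (a level per length of gene, scaled to the library total) of 7 colon epithelial markers was 929 to 2040 in control and 2572 to 3227 with doxorubicin. Of 12 leukocyte, fibroblast and endothelial markers, CD68, COL1A1 and VWF were in the table, with 13.1 to 43.9, 2.37 to 4.19 and 0.128 to 0.373 TPM in control libraries and 3.83 to 9.42, 1.04 to 6.19 and 0.195 to 0.315 TPM with doxorubicin. CD68 thus fell with doxorubicin, by 1.85 in the mean response on the log2(TPM + 1) scale (limma adjusted p = 3.4e-05), while the leukocyte markers PTPRC, CD3E and LYZ are not among the listed genes, and its part in the host results was not tested. Of a library's TPM, small RNAs made up 64.5 to 75.3%.

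In WT control medium the levels ran from SNHG3 at 410 ± 52.8 TPM (SD, n = 2) down to SNHG15 at 26.2 ± 4.99 TPM. GAS5 had 327 ± 116 TPM, SNHG6 227 ± 36.8, ZFAS1 209 ± 39.3 and SNHG1 208 ± 53.3, and each of these overlapped its neighbour in the order between libraries. SNHG8 at 141 ± 14.5 TPM, SNHG5 at 69.8 ± 14.0 and SNHG12 at 46.2 ± 8.63 stood apart from both neighbours. SNHG7 at 28.9 ± 4.91 TPM overlapped SNHG15. The place of SNHG3 may rest on SNORA73A, a snoRNA within its annotated exons, whose reads equalled 69.4 and 70.9% of those of SNHG3. They were taken to be counted for SNHG3 as well. Without these reads SNHG3 had 137 and 108 TPM, less than either library of GAS5, SNHG6, ZFAS1 or SNHG1, and overlapped SNHG8. Shares of such reads in the other hosts are given below.

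In the mean of the WT, KO and OE responses to doxorubicin, 5 of the 10 host genes were called lower, 1 was called higher and 4 were not called. SNHG6, ZFAS1, SNHG5, GAS5 and SNHG1 fell, SNHG7 rose, and SNHG3, SNHG8, SNHG12 and SNHG15 were not called. Calls rest on limma over the 15256 genes tested, with a threshold of 0.05 on the p adjusted by Benjamini and Hochberg. By that rule 25.9% of all genes were called lower and 32.2% called higher. The median of the 10 differences was -0.35 on the log2(TPM + 1) scale, beside 0.09 for all genes tested. By level alone, 4 hosts lay lower and 1 lay higher in all 6 doxorubicin libraries than in any control library, as did 16.3% and 15.7% of all genes. TPM is a share of the RNA in a library, and in bulk RNA fewer cells that express a gene and less of its RNA per cell cannot be told apart.

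**Figure D1:**
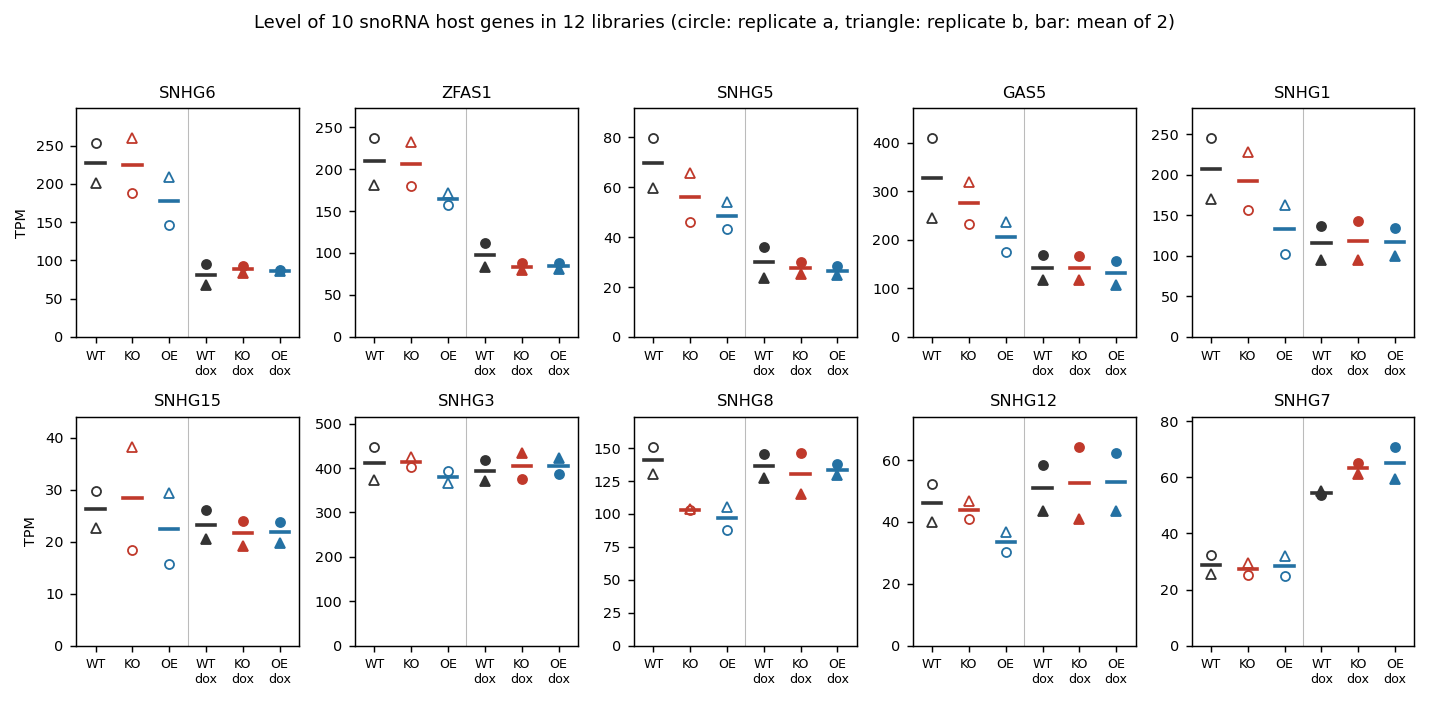
TPM (vertical axes, from 0) of each host gene in the 12 libraries, in control medium (open) and with doxorubicin (filled), for WT (black), KO (red) and OE (blue) cells, with replicate a as circle, b as triangle and the mean of 2 as bar. SNHG6, ZFAS1, SNHG5 and GAS5 lie lower in all 6 doxorubicin libraries than in any control library, and SNHG7 lies higher in all 6.

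SNHG6, host of the C/D box RNA SNORD87 on chromosome 8, gave the strongest fall. Without the drug its level was 253 and 201 TPM (WT), 189 and 260 (KO) and 146 and 209 (OE). With the drug it was 95.8 and 67.3 TPM (WT), 93.2 and 84.2 (KO) and 87.2 and 86.3 (OE). The 6 treated libraries lay under the lowest control library. The log2 difference was -1.48 ± 0.25 (SE) in WT (limma adjusted p = 0.0012), -1.31 ± 0.25 in KO (adjusted p = 0.0033) and -1.003 ± 0.25 in OE cells (adjusted p = 0.013).

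ZFAS1 lies at chr20:49278178-49295738 on the plus strand and holds SNORD12, SNORD12B and SNORD12C. In regular medium WT cells had 237 and 181 TPM, KO cells 179 and 232, and OE cells 157 and 171. With doxorubicin WT cells had 112 and 83.3 TPM, KO cells 87.6 and 79.8, and OE cells 87.5 and 80.9. Control and treated libraries did not overlap. The log2 difference was -1.09 ± 0.22 (SE) in WT (limma adjusted p = 0.0032), -1.28 ± 0.22 in KO (adjusted p = 0.0019) and -0.96 ± 0.22 in OE cells (adjusted p = 0.0095).

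SNHG5 (chr6:85660950-85678748, minus strand), host of SNORD50A and SNORD50B, stood in control medium at 79.7 and 59.9 TPM (WT), 46.2 and 65.9 (KO) and 43.2 and 54.1 (OE). With the drug the values were 36.1 and 23.8 TPM (WT), 29.96 and 25.2 (KO) and 28.5 and 24.7 (OE). Again the groups did not overlap. SNHG5 fell by 1.21 ± 0.26 (SE) on the log2 scale in WT, by 0.98 ± 0.26 in KO and by 0.84 ± 0.26 in OE cells, at limma adjusted p of 0.0048, 0.018 and 0.035.

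GAS5 (chr1:173863900-173868882, minus strand) holds 11 snoRNAs in RefSeq, of which 10 are C/D box RNAs. Its control values were 409 and 245 TPM (WT), 232 and 318 (KO) and 175 and 236 (OE). The doxorubicin values were 168 and 116 TPM (WT), 167 and 117 (KO) and 157 and 107 (OE). The highest treated library thus stood just under the lowest control library, which was OE control replicate a. GAS5 fell by 1.17 ± 0.31 (SE) on the log2 scale in WT (limma adjusted p = 0.013) and by 0.95 ± 0.31 in KO cells (adjusted p = 0.041). In OE cells its difference was -0.65 ± 0.31 (adjusted p = 0.14).

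SNHG1 (chr11:62851988-62855914, minus strand) holds 8 C/D box RNAs, SNORD22 and SNORD25 to SNORD31. Untreated WT cells had 245 and 170 TPM, KO cells 156 and 228, and OE cells 102 and 163. Treated WT cells had 137 and 94.8 TPM, KO cells 143 and 94.6, and OE cells 135 and 100.1. The groups did not overlap in WT and KO cells and overlapped in OE cells. It was called in the mean of the 3 responses, at -0.56 ± 0.18 (limma adjusted p = 0.017), and in none of them singly, at -0.84 (adjusted p = 0.057) in WT, -0.69 (adjusted p = 0.12) in KO and -0.15 (adjusted p = 0.75) in OE cells. The mean call for SNHG1 was lost without any 1 of 4 libraries (WT control a, KO control b, OE control b or WT doxorubicin b), at adjusted p of 0.055 to 0.061, and the WT response was called at adjusted p = 0.03 after median-ratio scaling.

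SNHG7 (chr9:136721366-136728184, minus strand), host of the H/ACA box RNAs SNORA17A and SNORA17B, rose. Control libraries held 32.4 and 25.4 TPM (WT), 25.1 and 29.5 (KO) and 24.8 and 31.9 (OE). Doxorubicin libraries held 53.6 and 55.0 TPM (WT), 65.1 and 61.1 (KO) and 70.8 and 59.3 (OE). Every treated library exceeded every control library. The log2 difference was 0.90 ± 0.21 (SE) in WT (limma adjusted p = 0.0077), 1.18 ± 0.21 in KO (adjusted p = 0.0026) and 1.18 ± 0.21 in OE cells (adjusted p = 0.0029). In WT cells the median of all genes was itself 0.17, and median-ratio scaling, which brings it to 0, gave SNHG7 0.68 (adjusted p = 0.051).

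SNHG3 (chr1:28505980-28510892, plus strand), host of SNORA73A and SNORA73B, had 367 to 447.5 TPM in the 6 control libraries and 370 to 435 with doxorubicin. Its mean difference was -0.0005 with a 95% interval of -0.23 to 0.23. SNHG8 (chr4:118278709-118279823, plus strand), host of SNORA24, had 87.9 to 151 TPM in control and 115 to 146 with doxorubicin, a mean difference of 0.25 (interval 0.01 to 0.49, limma adjusted p = 0.075). SNHG12 (chr1:28578538-28583132, minus strand), host of SNORA16A, SNORA44, SNORA61 and SNORD99, had 30.3 to 52.3 TPM in control and 40.9 to 64.3 with doxorubicin, a mean difference of 0.33 (interval -0.01 to 0.67, adjusted p = 0.085). Both SNHG8 and SNHG12 were called higher once small RNA genes were left out of the TPM, at 0.34 (limma adjusted p = 0.01) and 0.42 (adjusted p = 0.0071). In that setting 41.0% of all genes were called higher, and the median difference of all genes was 0.17. The values of both hosts there kept any reads on snoRNAs within their annotated exons. With such reads taken off the full TPM instead, SNHG8 averaged 102 TPM in control and 113 with doxorubicin, and SNHG12 averaged 36.3 and 44.8. SNHG15 (chr7:44983023-44986961, minus strand), host of SNORA9, had 15.7 to 38.2 TPM in control and 19.2 to 26.1 with doxorubicin, a mean difference of -0.15 (interval -0.58 to 0.28). The control libraries of KO cells alone ranged from 18.4 to 38.2 TPM for SNHG15, so its spread between replicates exceeded the difference.

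**Figure D2:**
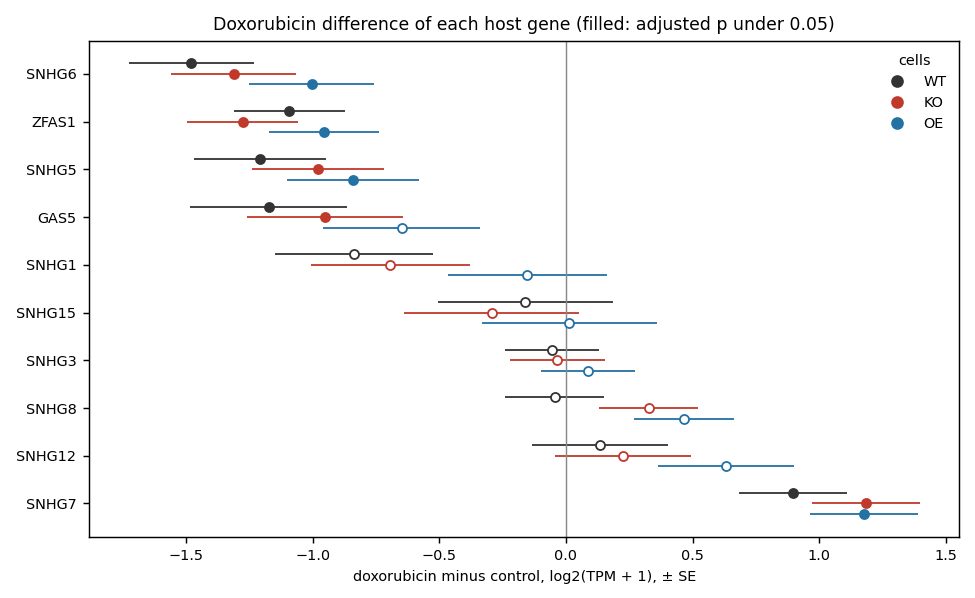
Doxorubicin minus control on the log2(TPM + 1) scale (horizontal axis) for each host gene in WT, KO and OE cells, with limma's SE as bars and filled points for an adjusted p under 0.05. SNHG6, ZFAS1 and SNHG5 are filled on the negative side for the 3 kinds of cells, GAS5 for WT and KO cells, and SNHG7 on the positive side for the 3.

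Counted by kind of cell, 4 hosts were called lower and 1 higher in WT cells, where 12.6% of all genes were called lower and 19.6% higher. In KO cells the counts were 4 lower and 1 higher, beside 14.3% and 9.9% of all genes. In OE cells they were 3 lower and 1 higher, beside 10.6% and 12.4%. Median-ratio scaling gave 5 hosts lower and 0 higher in WT cells and the same split as before in KO and OE cells. With that scaling WT cells had 23.0% of all genes called lower and 22.6% higher, KO cells 18.6% and 18.7%, and OE cells 19.5% and 19.6%. With 2 libraries a group, single libraries mattered. Without the library that moved it most, the count of called hosts was 2 in WT (without WT doxorubicin b), 3 in KO (without KO control b or KO doxorubicin b) and 1 in OE cells (without OE control b), and OE cells without doxorubicin replicate a gave 2. Without WT control a the WT count was 3, with GAS5 at -0.81 (limma adjusted p = 0.15) and SNHG5 at -1.01 (adjusted p = 0.062) no longer called.

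In RefSeq the 5 hosts that fell are those that hold more C/D than H/ACA box RNAs, and the other 5 hold more H/ACA box RNAs. This division was noticed after the values were seen and is given without a test. The mean differences ran from -1.26 to -0.56 for the C/D hosts and from -0.15 to 1.09 for the H/ACA hosts. Without the reads on SNORA73A, which lies within its annotated exons, the H/ACA host SNHG3 was at -0.31. Among 16 other non-coding snoRNA hosts in the table, 3 of 7 with mostly C/D box RNAs were called lower and 1 higher. In 3 of the 16 (SNHG10, SNHG20 and SNHG21) no snoRNA was found. The 6 with mostly H/ACA box RNAs had differences of 0.06 or more, and 2 of these 6 were called higher. Of all genes 25.9% were called lower and 32.2% higher, so 2 of 6 is near the share of all genes. Among 31 protein-coding hosts the division was not seen, with 15 of 17 C/D hosts and 9 of 10 H/ACA hosts called lower. Of the rest, 3 held equal numbers of both classes, and in EEF1A1 no snoRNA was found.

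Some snoRNAs lie inside stretches that GENCODE counts as host exon, and their reads were taken to count for the host as well. This is inferred from snoRNA entries that overlap each other, and was not checked between a snoRNA and its host. In 3 places where the annotation lists a snoRNA under 2 overlapping identifiers, both had nearly the same reads (12442 and 12177 for SNORA17B, 574 and 574 for SNORA16A, 660 and 659 for SNORA17A and its RF00560 entry). The share of a host's reads on such snoRNAs was 69.4 to 86.9% for SNHG3, 14.4 to 57.2% for SNHG7, 8.77 to 26.5% for SNHG12 and 5.96 to 25.8% for SNHG8. It was 1.40 to 10.8% for SNHG15 and 2.54 to 5.75% for SNHG1. The SNHG12 values gave whole reads with a length of 3377 bases, not the 4266 bases of its GENCODE v29 exons. Whether its snoRNAs lie in the exons that were counted is therefore not known, and its share carries that limit. For GAS5, SNHG5, SNHG6 and ZFAS1 no exonic snoRNA is among the listed genes, so the share was set to 0 and not measured. SNORD50B, SNORD87 and SNORD12 lie within exons of SNHG5, SNHG6 and ZFAS1 but are not listed. Nor are the exonic SNORD25 to SNORD28 of SNHG1, whose share covers its listed snoRNAs only.

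**Figure D3:**
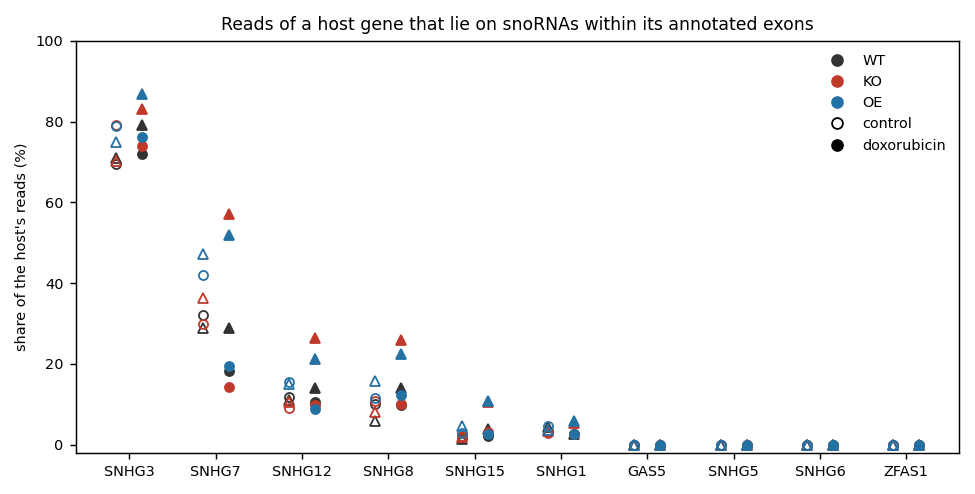
Reads on listed snoRNAs within each host gene's annotated exons, as a share (%, vertical axis) of the host's reads. Each library is 1 point, open for control and filled for doxorubicin, circle for replicate a and triangle for b. SNHG3 lies between 69.4 and 86.9%, and SNHG7 reaches 57.2% in KO doxorubicin replicate b. GAS5, SNHG5, SNHG6 and ZFAS1 are drawn at 0 because none of their exonic snoRNAs is listed, so their share was not measured.

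SNORA73A (chr1:28507366-28507571, plus strand, GRCh38), which lies within SNHG3, is shown as a main source of these reads, with the ACA box, found 3 bases from the 3′ end, in capitals.
SNORA73A: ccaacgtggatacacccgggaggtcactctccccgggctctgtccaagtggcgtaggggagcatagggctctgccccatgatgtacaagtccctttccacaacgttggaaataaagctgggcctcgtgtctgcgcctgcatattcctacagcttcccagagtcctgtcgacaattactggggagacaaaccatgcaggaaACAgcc

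Without these reads SNHG3 had 82.8 to 137 TPM in control and 55.6 to 117 with doxorubicin. Its mean difference was then -0.31 (limma adjusted p = 0.14). SNHG7 had 14.4 to 21.96 TPM in control and 26.2 to 57.1 with doxorubicin, so its groups still did not overlap, and its mean difference was 1.12 (adjusted p = 0.00042). The close agreement of its treated replicates did not hold once these reads were taken off. KO doxorubicin replicates a and b had 65.1 and 61.1 TPM in all, but 55.8 and 26.2 TPM without SNORA17A and SNORA17B. SNHG7 was still called in each kind of cell, at 1.02 (adjusted p = 0.039) in WT, 1.03 (adjusted p = 0.046) in KO and 1.32 (adjusted p = 0.018) in OE cells. No call among the 10 genes in the mean response changed when these reads were left out.

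Of the snoRNA entries within the hosts, 18 were in the table, 3 of them second identifiers of the same RNA. SNORA73A and SNORA73B had 6070 and 4182 TPM on average over the 12 libraries, 15.1 and 10.4 times the full TPM of SNHG3. That TPM was taken to include the reads on SNORA73A. Without them SNHG3 had a mean of 105 TPM in control and 85.3 with doxorubicin, so both ratios to the rest of the host are larger. The doxorubicin differences of SNORA73A and SNORA73B were 0.09 and 0.07 (limma adjusted p = 0.60 and 0.68). SNORA24 of SNHG8 rose by 0.80 (adjusted p = 0.0087) and SNORA61 of SNHG12 by 0.57 (adjusted p = 0.0039) on the log2 scale, while their hosts were not called. SNORA17A of SNHG7 rose by 0.73 (adjusted p = 0.036), and SNORA17B had 0.74 (adjusted p = 0.05, just under the threshold) or 0.71 (adjusted p = 0.072) depending on the identifier. These rises depended on the scaling: with median-ratio scaling the adjusted p was 0.075 for SNORA24, 0.084 for SNORA61, 0.15 for SNORA17A and 0.20 for SNORA17B, and with voom 0.11, 0.12, 0.20 and 0.21. SNORA17A was called in 12 of 20 other settings and lost its call without any 1 of 6 libraries (WT control b, KO control a, OE control a or a doxorubicin replicate b of WT, KO or OE cells), at adjusted p of 0.069 to 0.11, and SNORA17B in its called entry was called in 7 of 20. The H/ACA entries were highest in KO and OE doxorubicin replicates b: SNORA17B, for example, had 1070 and 947 TPM there and 278 and 414 in replicates a. Those 2 libraries also had small RNA shares of 71.8 and 75.3% of TPM, against 66.2 and 67.8% in replicates a, and the part of this in the snoRNA results was not tested.

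Within SNHG1, which fell, SNORD30 fell by 0.86 (limma adjusted p = 0.0049) and an entry named RF00099 fell by 1.37 (adjusted p = 0.00043), while SNORD22 had -0.35 (adjusted p = 0.18). Within ZFAS1, which fell, SNORD12C instead rose by 0.71 (adjusted p = 0.0036, and 0.057 with voom) and SNORD12B had 0.26 (adjusted p = 0.14). SNORD30 (chr11:62853663-62853732, minus strand) and SNORD12B (chr20:49280319-49280409, plus strand) are shown, with the C box (GTGATGA or ATGATGA) and D box (CTGA) in capitals, as C/D box RNAs of hosts that fell, of which SNORD30 was itself called lower and SNORD12B was not called.
SNORD30: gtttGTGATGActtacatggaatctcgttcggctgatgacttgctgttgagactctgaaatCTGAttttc
SNORD12B: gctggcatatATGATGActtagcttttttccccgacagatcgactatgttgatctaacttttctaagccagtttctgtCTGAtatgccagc

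A ratio of snoRNA to host in the same library does not depend on how libraries are scaled. It was taken, after the values were seen and so without a test, for the 4 listed snoRNAs that share no base with an exon of their host. The ratio was of TPM, with reads of listed exonic snoRNAs left out of the host. SNORD12C in control medium stood at 49.8 and 35.3 TPM (WT), 54.9 and 32.4 (KO) and 32.1 and 40.8 (OE), from 25 to 57 reads. With the drug it stood at 69.4 and 50.7 TPM (WT), 54.1 and 86.8 (KO) and 71.0 and 71.2 (OE), from 80 to 173 reads. Its log2 ratio to ZFAS1 was -2.25 ± 0.37 (SD, n = 6) in control and -0.41 ± 0.35 with doxorubicin, and the libraries did not overlap. The SNORD12B ratio was -1.37 ± 0.36 in control and 0.01 ± 0.19 with doxorubicin, also without overlap. The differences of 1.84 and 1.38 combine the fall of ZFAS1 with the snoRNA differences given above and add no separate evidence.

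The SNORD99 to SNHG12 ratio differed by -0.38 and the SNORA73B to SNHG3 ratio by 0.38, each with overlap between control and doxorubicin libraries. The SNHG12 level used there carries the limit on its counted exons given above. Reads on a snoRNA may come from the processed RNA or from unspliced host RNA, which these values cannot tell apart.

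**Figure D4:**
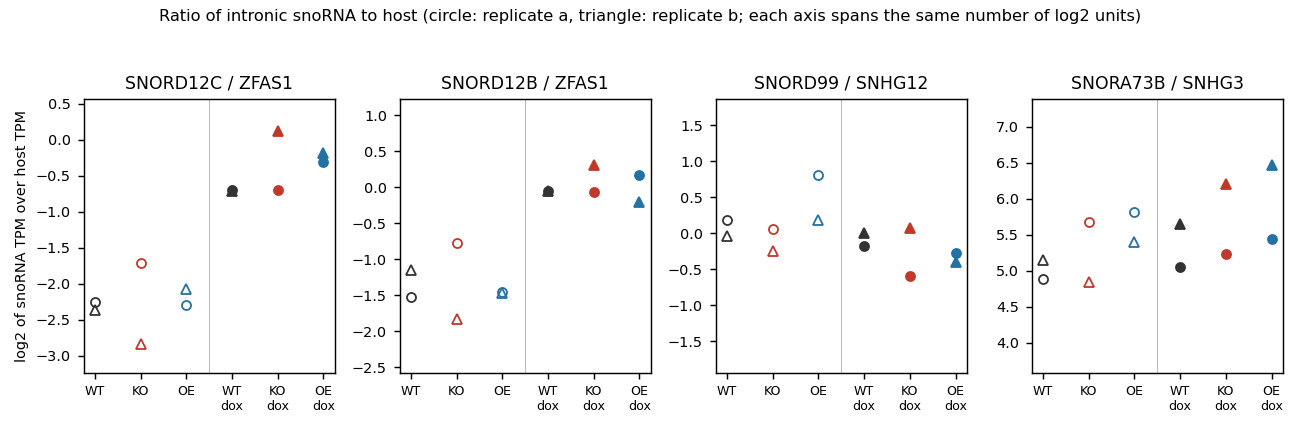
log2 of snoRNA TPM over host TPM (vertical axes) in the 12 libraries for the 4 intronic snoRNAs, in control (open) and doxorubicin (filled), circle for replicate a and triangle for b. For SNORD12C and SNORD12B every doxorubicin library lies above every control library, and for SNORD99 and SNORA73B the groups overlap.

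Exons of 6 hosts share bases with exons of another gene, and whether strand was used in counting is not given in the sources used here. SNHG7 shares 1094 bases with FAM69B on the other strand, which had 3.22 to 7.99 TPM in control and a doxorubicin difference of -0.33 (limma adjusted p = 0.22) while SNHG7 rose. ZFAS1 shares 249 bases with ZNFX1 on the other strand, which rose by 1.63 (adjusted p = 1.8e-05) while ZFAS1 fell. SNHG3 shares 242 bases with RCC1 on the same strand, which rose by 0.61 (adjusted p = 0.0017). SNHG6 shares 365 bases with MCMDC2, which is not among the listed genes.

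No host gene was called by limma between KO or OE and WT cells, in either medium, and none in the KO by doxorubicin or OE by doxorubicin interaction. The shares of all genes called were 0.0918% for KO and 0.118% for OE in control medium, 0.295% and 0.315% with doxorubicin, and 0.00655% for each interaction. At an unadjusted p under 0.05 there was 1 host gene in each of the 2 comparisons in control medium, where 7.14% (KO) and 5.03% (OE) of all genes were. There were 0 with doxorubicin, beside 3.43% and 4.83% of all genes, and 0 in the interactions, beside 1.27% and 0.983%. The host in question was SNHG8, at 151 and 130 TPM (WT), 103 and 103.5 (KO) and 87.9 and 106 (OE). Its differences were -0.44 ± 0.20 (SE) for KO (limma adjusted p = 0.68) and -0.54 ± 0.20 for OE (adjusted p = 0.82). With voom on the recovered reads the count of called hosts was also 0 in these 6 comparisons.

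In OE against WT control medium the 10 differences were negative, from -0.66 for SNHG1 to -0.03 for SNHG7, with a median of -0.41 beside -0.04 for all genes. After leaving out small RNA genes from the TPM, SNHG3 (0.01) and SNHG7 (0.08) were above 0, and SNHG7 also after median-ratio scaling (0.02). The hosts also differed together between replicates of 1 group. In WT control all 10 were higher in replicate a than in b, by a median of 0.38 on the log2 scale, while the median of all genes was -0.15. In KO control all 10 were lower in a than in b, by a median of -0.41 beside 0.20 for all genes, and in OE control 9 of 10 were lower in a. The interaction estimates for OE cells were between 0.14 for ZFAS1 and 0.68 for SNHG1, with 95% intervals that span -0.88 to 1.64 over the 10 genes, and rest on the same OE and WT control libraries.

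Over the 12 libraries the mean of the 10 centred host profiles was followed most closely by SNHG1 (r = 0.99) and GAS5 (r = 0.95) among the hosts themselves and least by SNHG7 (r = -0.49). Each host is part of that mean, which raises its own r, so these r are not comparable with those of other genes. The 10 other genes most like that mean were IMMP1L, ACYP1, METTL21AP1, DHX36, KHDC4, ING3, C1orf52, ANAPC10, RPL9 and RGPD5, with Pearson r from 0.94 to 0.95 over 12 libraries. Medium and depth went together in these libraries, since every control library had fewer reads than any doxorubicin library.

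Beside the hosts stood genes of the same RNA class and of the steps that make or remove host RNA, from lists drawn up for this comparison. Their counts are read beside the 32.2% of all genes called higher and the 25.9% called lower in the mean response. Of 31 protein-coding snoRNA hosts with 5′TOP messenger RNAs, 27 were called lower and 2 higher, with a median difference of -0.76. RPL12 fell by 1.59, RPL3 by 1.56 and RPS2 by 1.21 on the log2 scale, and the chaperone gene HSPA8 (1.25) and the nucleolin gene NCL (0.73) rose. Of the 16 other non-coding hosts, 4 were called higher and 3 lower, both under the shares of all genes, with a median of 0.13. SNHG26 (1.43), SNHG11 (1.12) and SNHG20 (0.72, with no snoRNA found in it) rose, and SNHG19 fell by 0.56. Of 14 tested non-coding RNAs that host no snoRNA, 6 rose and 6 fell, among them NORAD (1.33) and the paraspeckle RNA NEAT1 (-1.91).

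Of 20 nonsense-mediated decay factors, 4 rose and 2 fell, fewer in each direction than the shares of all genes (32.2% and 25.9%) would give. SMG8 (1.10), a regulator of the kinase SMG1, rose, and EIF4A3 (-1.01), a core of the exon junction complex, fell. Of 20 proteins that form or assemble snoRNA particles, 7 rose, near the share of all genes, and 2 fell, under it. The assembly helicase gene RUVBL1 (1.69), the C/D core gene NOP56 (1.03) and the H/ACA pseudouridine synthase gene DKC1 (0.92) rose, while FBL, the C/D methyltransferase gene fibrillarin, fell by 1.19. Of 15 genes of 5′TOP and growth control, 6 rose and 3 fell, near those shares, with MYC at 1.67, RPTOR at 1.04, MAX at 0.73 and MXD1 at -1.70.

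**Figure D5:**
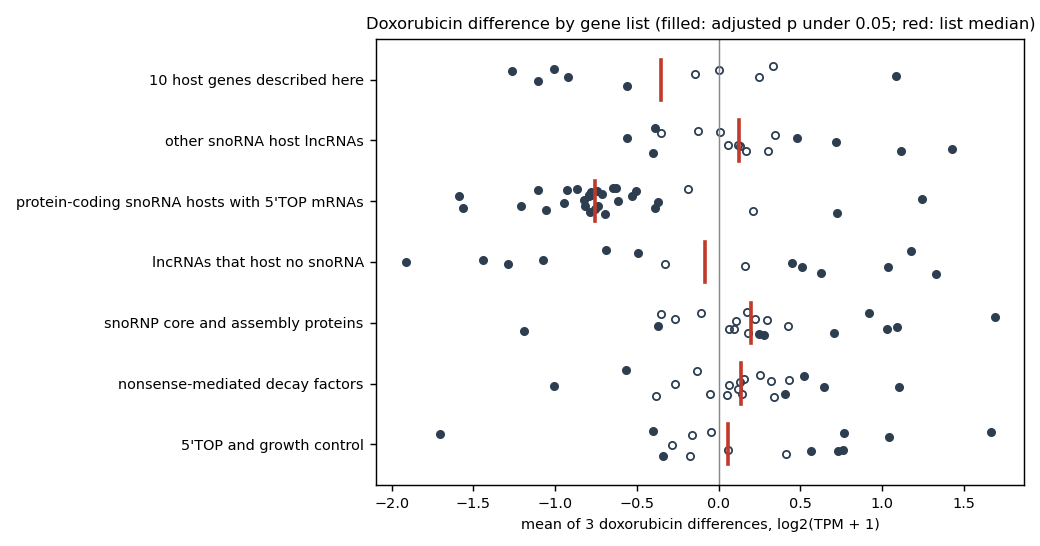
Mean of the 3 doxorubicin differences on the log2(TPM + 1) scale (horizontal axis) for each tested gene of 7 lists, filled at an adjusted p under 0.05, with the list median in red. The protein-coding hosts have their median at -0.76, the 10 host genes at -0.35 and the 16 other non-coding hosts at 0.13.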

How the data were processed

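Total RNA of 12 libraries was sequenced from stranded libraries, per the labels' protocols. The authors deposited log2 TPM values per gene, whose antilogs sum to 1000000 in each library. Per the submitters' processing notes, the build was hg38 and the tools included edgeR 3.12.1 in R 3.3.3, SAMtools 1.7, HISAT2 2.0.4 and featureCounts. The annotation, strand setting and filter are not given in the sources used here. Of 16676 identifiers, 16564 were found in GENCODE v29, and SPARCLE was found through its RefSeq gene identifier (MIR34BHG).

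Reads were recovered from the deposited log2 values. With GENCODE exon lengths the values of 15182 genes (91.7%) came within 0.05 reads of whole numbers in every library after a prior count was taken off, against 6 genes with shuffled lengths. A single searched length gave whole reads for 1462 more. Another 28 genes had more than 1 solution and were given no reads. SNHG5 (2794 bases) and SNHG12 (3377 bases) are among those with a searched length.

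Tests used log2(TPM + 1). The test kept 15256 genes that reached 1 TPM in 2 or more libraries. A limma 3.58.1 model (R 4.3.3, eBayes with trend) with 6 group means was fitted to the 12 libraries, with 6 residual and 6.97 prior degrees of freedom. There were 10 comparisons, each a contrast of group means, and p-values were Benjamini-Hochberg adjusted over all genes tested. On simulated data for doxorubicin in WT cells with 14702 genes, 66% of 100 genes changed by 1 log2 unit and 100% of 100 genes changed by 2 were recovered. No other genes were changed. The changed genes were drawn from those with many reads, at a chosen spread, so the recovery in these data may differ. The alternatives numbered 21 settings, of which leaving out exonic snoRNA reads was added after seeing the data, as were the snoRNA to host ratios.

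The 10 genes and the 7 other lists were chosen with earlier results of these data known. Beside the 10 genes, the text names snoRNAs within them, up to 4 genes of a list with the smallest adjusted p in the mean doxorubicin response, any that moved against its list, and the 10 genes most like the mean host profile. Genes that share exons with a host were chosen by position.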

Additional observations from a re-analysis of the deposited data

How the results depend on the processing

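In the 6 comparisons between kinds of cells and their interactions, the count of called host genes was 0 in limma with each of the 21 other settings, voom included. For doxorubicin, leaving out 1 library at a time gave 2 to 6 called hosts in WT, 3 to 5 in KO and 1 to 4 in OE cells and 5 to 7 in the mean response, against 5, 5, 4 and 6 with the 12 libraries. Other settings stayed within 1.5 times those counts. Of 2100 single differences of a host under another setting, 22 lost a call and 15 gained one, and none reversed a called direction. SNHG6, ZFAS1, SNHG5, GAS5 and SNHG7 kept their call in the mean response under all 21 settings. The letters a and b may not pair the samples. The deviations of replicate a from its group mean, over genes, correlated between 2 groups from -0.42 to 0.81 after median-ratio scaling. The value of 0.81 was for KO and OE cells with doxorubicin, and the next was 0.52, for KO and OE control. With the letter as a replicate block the counts were 5, 5, 4 and 6, as without. Median-ratio scaling moved the share of higher among all calls from 60.9 to 49.6% in WT cells (2994 higher and 1920 lower to 3447 and 3506), from 40.9 to 50.1% in KO cells (1510 and 2185 to 2855 and 2840) and from 54.0 to 50.1% in OE cells (1895 and 1615 to 2988 and 2980). In simulation 66% of changes of 1 log2 unit were recovered, a share that need not hold for these data. With 2 libraries a group, smaller changes can be missed.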
